A study of Mus musculus with 8 samples.

Results

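The enzymes of the pentose phosphate pathway and of cytosolic NADPH production were followed in mouse liver through 8 genes, Pgd, G6pdx, H6pd, Pgls, Taldo1, Tkt, Rpia and Idh1. A probe set was counted as a member if the array annotation gave 1 of these symbols as its only gene, and 13 of the 45037 probe sets met this rule. They covered 7 of the 8 genes: Pgd had 4 probe sets, Tkt 3, Idh1 2, and H6pd, Pgls, Taldo1 and Rpia 1 each. No probe set was named for G6pdx in the annotation used, so that gene was not analysed here. No signal value entered the choice of probe sets for these genes, but the genes were chosen with earlier results of these data known.

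Liver RNA was hybridized to 8 Affymetrix arrays, 2 for each of 4 groups. The groups labelled WT were wild type mice of 3, 12 and 19 months, and the group labelled MT was sirt1 knockout mice of 3 months. All mice shared one mixed strain background (129/FVB/Black Swiss) and were killed in the morning under a 12-h light schedule, and their livers were kept in RNALater. The knockout lacks Sirt1 in the whole body from conception, most such animals die before birth, and the mutant livers therefore come from the survivors. The study's results text describes more mice per group than the arrays given here, whereas its methods give 2 samples per condition. Neither the study's text nor the labels tie an array to a mouse, so an array may hold 1 liver or several. Also, mutant mice older than 3 months were not analysed here.

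The pentose phosphate pathway burns glucose 6-phosphate in the cytosol for NADPH and ribose. Its oxidative branch makes NADPH at the steps of G6pdx and Pgd, with Pgls between them, and its non-oxidative branch (Rpia, Tkt, Taldo1) interconverts the sugar phosphates and leads them to nucleotides or back to glycolysis. In liver the NADPH is used for fatty acid and sterol synthesis and for keeping glutathione and thioredoxin reduced. Idh1, the cytosolic NADP-dependent isocitrate dehydrogenase, is a further source, and H6pd carries out the first steps of the pathway inside the endoplasmic reticulum.

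The promoter of Pgd is shown because Pgd was the member with a called probe set. The 250 bases before its upstream start site in RefSeq (GRCm38.p6, chr4:149166706-149166955, minus strand) are given 5′ to 3′, with the letters CCAAT, or ATTGG for the same box on the other strand, in capitals.
Pgd: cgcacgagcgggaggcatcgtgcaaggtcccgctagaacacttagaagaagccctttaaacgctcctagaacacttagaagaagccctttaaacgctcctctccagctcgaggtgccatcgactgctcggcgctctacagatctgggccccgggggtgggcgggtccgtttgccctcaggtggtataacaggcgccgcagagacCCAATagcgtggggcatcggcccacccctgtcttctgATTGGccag
Taldo1: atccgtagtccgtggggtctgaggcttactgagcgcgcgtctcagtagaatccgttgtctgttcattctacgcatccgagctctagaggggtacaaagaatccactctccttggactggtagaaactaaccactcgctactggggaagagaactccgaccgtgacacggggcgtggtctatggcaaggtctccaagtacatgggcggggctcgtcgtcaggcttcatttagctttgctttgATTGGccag
The Taldo1 bases (chr7:141391910-141392159, plus strand) are set beside them because both windows end in the same letters around a box that starts at position -9 from the start site. The Pgd window was 60.4% G or C, held a second CCAAT at -46, and repeated a 35-base run that began at -218 and again at -185. All 8 genes had a RefSeq promoter, with 10 start sites among them, and the windows searched ran from 250 bases before to 50 after each start. The E-box CACGTG was in 0 of the 10 windows and in 7.15% of all 32851 promoters, and the sterol element TCACNNCAC was in 0 of the 10 and in 3.77% of all. The antioxidant element TGACNNNGC was in 2 of the 10, 1 for G6pdx at -57 and 1 at the second Pgd start site at +3, against 12.4% of all. CCAAT, which was picked after the sequences had been seen, was in 4 of the 10 and in 37.4% of all, both strands being read in each search.

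The deposited signals had been scaled by the authors to the same trimmed mean, and the medians of the 8 arrays lay between 74.5 and 82.8. Correlations of log2 signal over all probe sets were 0.913 to 0.926 within groups and 0.909 to 0.922 between them. The Sirt1 probe set read 589 and 539 in WT at 3 months and 615 and 713 in MT, but the sources used here do not place its probes inside or outside the deleted part, so it does not check the genotype. The study's methods give the mutant mice of its main experiments as males, whereas the Xist probe sets were at the 95.2 percentile or higher on all 8 arrays and those of 3 Y-linked genes did not exceed the 43.1 percentile. All 9 hepatocyte markers with a probe set were above the array median on every array. The summed signals of the other marker lists ranged over the arrays from 649 to 998 for T and NK cells, 987 to 2330 for neutrophils, 452 to 782 for erythroid cells, 6818 to 9402 for endothelium, 191 to 436 for bile duct, 5293 to 7598 for stellate cells and 1739 to 5024 for exocrine pancreas, the last being highest in WT at 3 months.

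Pgd had a higher signal in WT liver at 12 months than in any other group. It catalyses the second NADPH-producing step and releases ribulose 5-phosphate. On the probe set of highest mean signal, 1436771_x_at, the arrays read 2240 and 2696 in WT at 3 months, 7926 and 5742 at 12 months, 2563 and 2394 at 19 months, and 2829 and 1958 in MT at 3 months. Both 12-month arrays were above the other 6, and those 6 overlapped one another across groups.

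**Figure D1:**
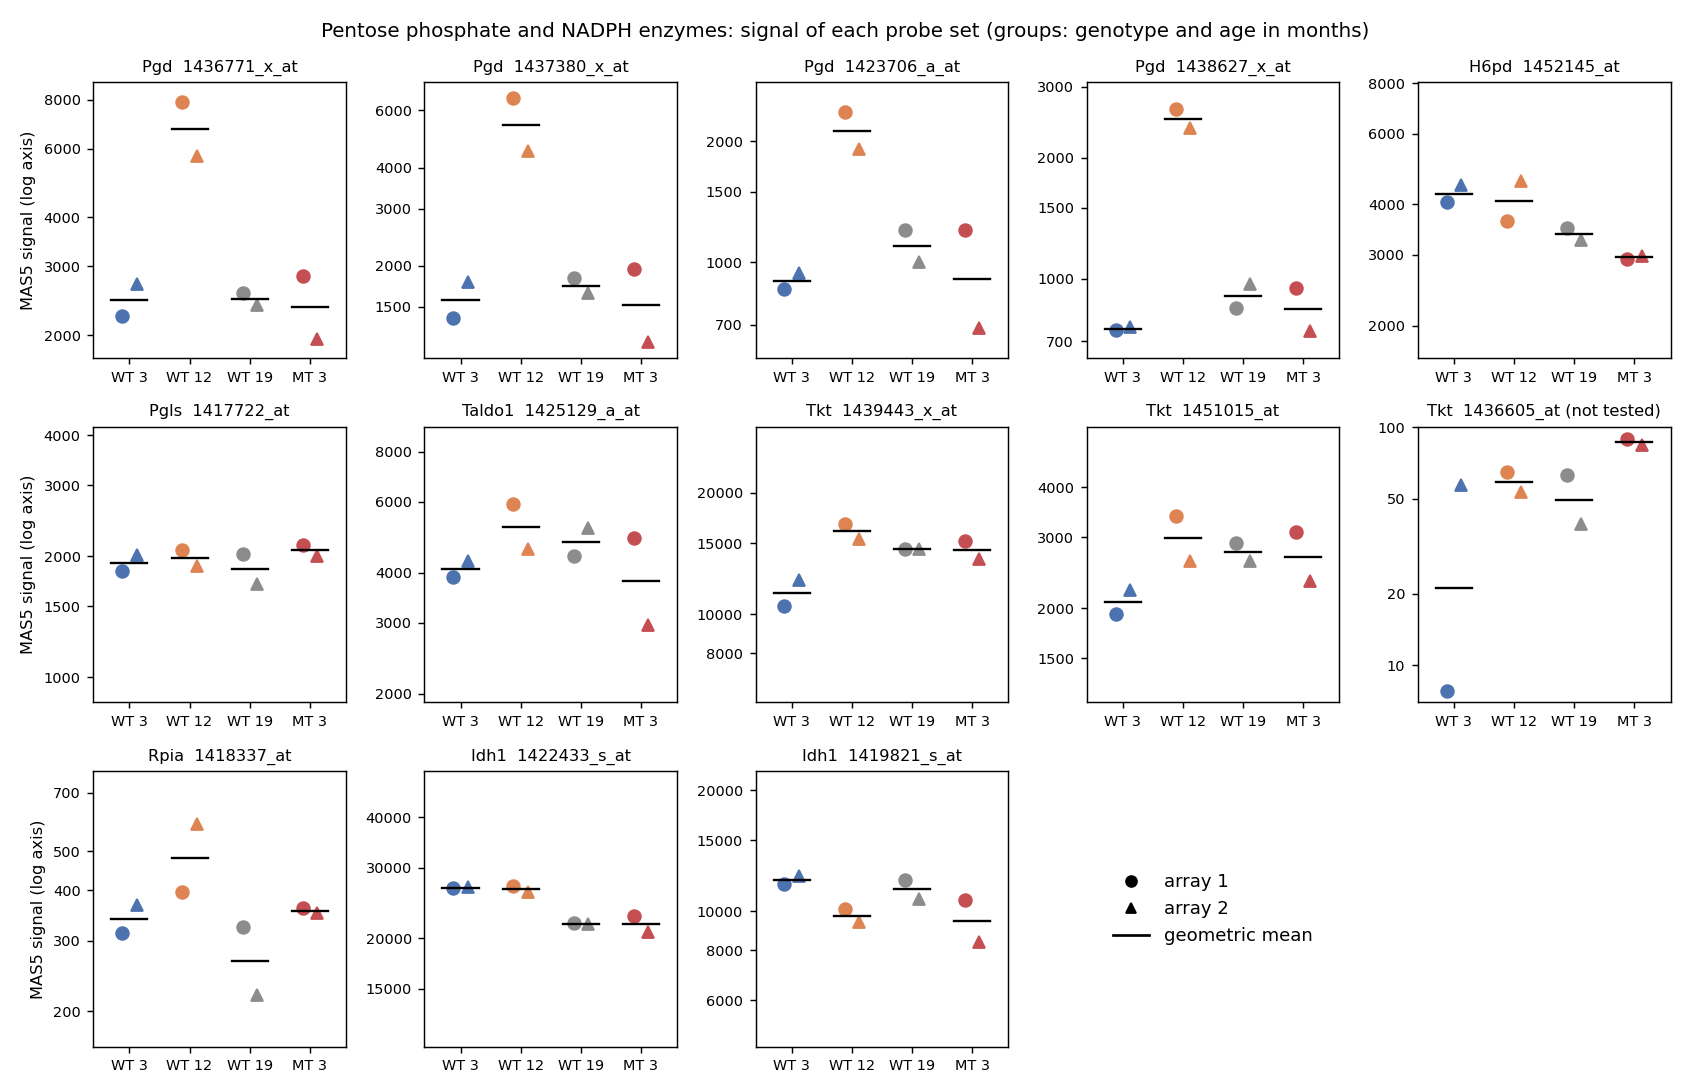
Signal (log axis, whose range differs between panels) of each of the 13 probe sets on the 8 arrays, with a circle for the first array, a triangle for the second and a line for the geometric mean of each group of 2. On all 4 Pgd panels the WT 12-month arrays lie above the other 6, as they do, by less, for Rpia and for Tkt on 1439443_x_at. The Tkt probe set 1436605_at was too low to be tested.

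The other Pgd probe sets had the same order at the top. Probe set 1438627_x_at read 745 and 760 in WT at 3 months, 2636 and 2372 at 12 months, 848 and 970 at 19 months, and 951 and 743 in MT. Its arrays lay closer together than those of the other Pgd probe sets in every group but WT at 19 months. Probe set 1437380_x_at read 1382 and 1782, then 6537 and 4501, then 1832 and 1653 in WT, and 1961 and 1170 in MT. Probe set 1423706_a_at read 857 and 943, then 2364 and 1913, then 1204 and 1003 in WT, and 1203 and 687 in MT. The 4 probe sets share the same 8 RNA samples and are not replicates of each other, and their pairwise correlations over the 8 arrays were 0.938 to 0.997.

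**Figure D2:**
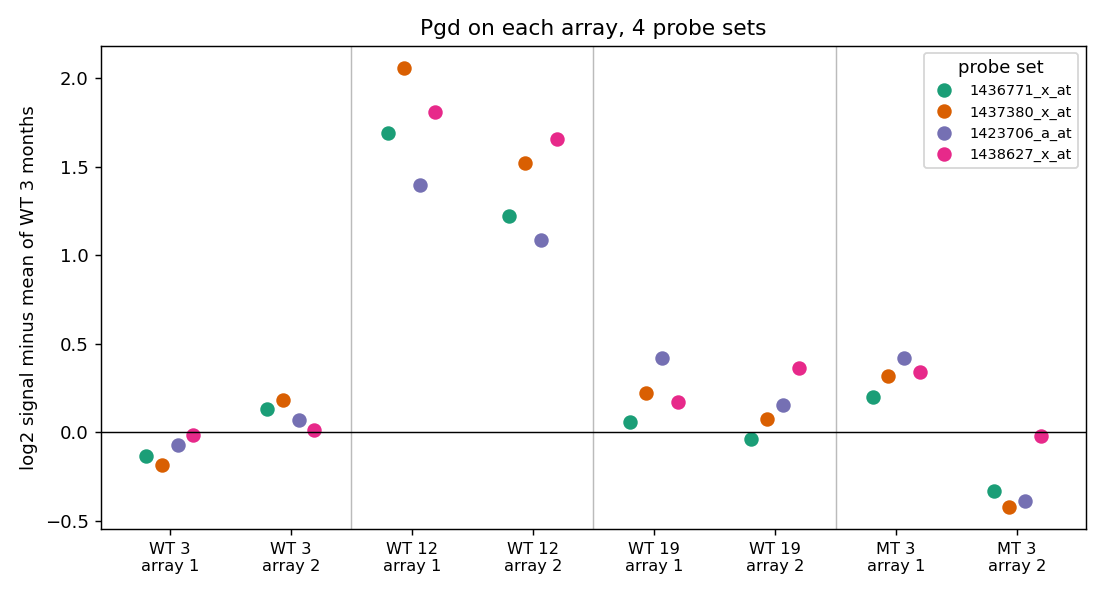
Log2 signal of the 4 Pgd probe sets on each array, less the mean of the WT 3-month arrays on that probe set. The 12-month arrays stand 1.09 to 2.06 above that mean, and the second MT array is the lowest array on all 4 probe sets.

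From 3 to 12 months in WT, limma gave 1438627_x_at a rise of 1.73 on the log2 scale (SE 0.17, 95% interval 1.35 to 2.12, 3.32-fold, adjusted p = 0.0243), and this passed the threshold of an adjusted p of 0.05. On 1436771_x_at the difference was 1.46 (SE 0.21, 2.75-fold, adjusted p = 0.103), on 1437380_x_at 1.79 (SE 0.26, 3.46-fold, adjusted p = 0.103) and on 1423706_a_at 1.24 (SE 0.25, 2.37-fold, adjusted p = 0.213). Thus 1 of the 12 member probe sets tested was called, where 0.0133% of all 22519 probe sets tested were (3 in all), and 6 of the 12 had an unadjusted p below 0.05, as did 8.57% of all. By p the 4 Pgd probe sets ranked 2, 12, 14 and 74 of the 22519. The call rested on few arrays: the adjusted p was 0.200 and 0.129 without the first or second WT 3-month array, 0.0505 without the first 12-month array, and 0.0535 and 0.0537 without either 19-month array, while the difference stayed between 1.66 and 1.81. Without the variance trend it was also lost (adjusted p = 0.200, with 0 of all probe sets called), as it was under the plain t-test that the study's methods name, after Benjamini-Hochberg adjustment (0.529). The MT arrays do not enter this difference, so leaving out either of them could not move it from 1.73 on 1438627_x_at.

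From 12 to 19 months the differences of Pgd were all below 0. They were -1.45 on 1436771_x_at (SE 0.21, adjusted p = 0.152), -1.64 on 1437380_x_at (SE 0.26, adjusted p = 0.152), -0.95 on 1423706_a_at (SE 0.25, adjusted p = 0.274) and -1.46 on 1438627_x_at (SE 0.17, adjusted p = 0.0720). None passed the threshold, and limma called 0% of all probe sets in this comparison, although 2419 of them (10.7%) and 6 of the 12 members had an unadjusted p below 0.05. The same t-test with a fold above 1.5 picked 4 member probe sets and 524 of all probe sets tested here before adjustment, and 0 of either after it. The MT arrays do not enter this difference either, so leaving out 1 of them could not move it from -1.45 on 1436771_x_at. Both comparisons share the 12-month arrays, so the rise and the later difference are not independent of each other.

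At 19 months Pgd was close to its 3-month level. The differences were 0.01 on 1436771_x_at (95% interval -0.47 to 0.49), 0.15 on 1437380_x_at (-0.44 to 0.74), 0.29 on 1423706_a_at (-0.28 to 0.85) and 0.27 on 1438627_x_at (-0.11 to 0.65), with limma adjusted p-values from 0.570 to 0.990. Between MT and WT at 3 months the same probe sets differed by -0.06 (-0.54 to 0.42), -0.05 (-0.64 to 0.54), 0.02 (-0.55 to 0.58) and 0.16 (-0.22 to 0.54). Each of these intervals includes 0 and ends below the 12-month difference of the same probe set.

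Other signals of the same livers were read beside those of Pgd. The summed signal of the B and plasma cell markers (6 of 7 with a probe set) was 1109 and 1418 in WT at 3 months, 4927 and 3760 at 12 months, 8458 and 7641 at 19 months, and 1148 and 1757 in MT. Of these markers Cd79a was below the array median on all 8 arrays. Igha, an antibody heavy chain gene among them, rose by 2.49 at 12 months (limma adjusted p = 0.00902) and by 3.34 at 19 months (adjusted p = 0.000650), both against 3 months, and differed by -1.54 in MT against WT at 12 months (adjusted p = 0.0286). At 12 against 3 months Ighm and Jchain differed by 1.65 and 1.95 (limma adjusted p = 0.463 and 0.189). The markers Cd79b and Ms4a1 went the other way, by -0.35 and -0.37 (limma adjusted p = 0.830 and 0.833). The hepatocyte sum was 417259 and 398818 at 3 months and 399587 and 435105 at 12 months. The Kupffer cell and macrophage sum was 20279 and 18701 against 17241 and 18316. At 19 months all 10 of these markers were higher than at 3 months, with a median of 0.65, and than at 12 months, with 0.70. Of the 10, 6 and 8 had an unadjusted limma p below 0.05 and 0 were called. In MT against WT at 3 months 2 of the 10 were higher, with a median of -0.28. The log2 difference between the 3′ and 5′ probe sets of the Pcx control, a sign of RNA quality, was 4.25 and 3.88 at 3 months, 4.54 and 5.10 at 12 months, 5.86 and 4.77 at 19 months, and 3.88 and 3.93 in MT. For the Actb control this difference was 1.22 and 1.09, 1.26 and 1.31, 1.23 and 1.25, and 0.97 and 1.48, in the same order. For the Gapdh control it was -0.59 and -0.51, -0.34 and -0.46, -0.39 and -0.44, and -0.62 and -0.38. The part of these marker sums and control values in the Pgd values was not tested. In whole liver, fewer cells of a type and less RNA per cell cannot be told apart.

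Pgls, which hydrolyses the lactone between the steps of G6pdx and Pgd, had the most even signal. Its probe set 1417722_at read 1836 and 2010 in WT at 3 months, 2074 and 1895 at 12 months, 2029 and 1702 at 19 months, and 2133 and 2005 in MT. The groups overlapped in every comparison. The limma differences ran from -0.09 to 0.11, with adjusted p-values of 0.818 or more, and the interval of the 12-month difference was -0.29 to 0.38.

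H6pd, the enzyme of the endoplasmic reticulum that supplies NADPH to its steroid reductase, was lowest in MT. Probe set 1452145_at read 4048 and 4472 in WT at 3 months, 3636 and 4572 at 12 months, 3492 and 3272 at 19 months, and 2926 and 2986 in MT. The MT arrays were below the other 6, and the 19-month arrays were below those of both younger WT groups. Against WT at 3 months the MT difference was -0.53 (SE 0.15, 95% interval -0.85 to -0.20, limma adjusted p = 0.154) and the 19-month difference -0.33 (SE 0.15, adjusted p = 0.395). Neither passed the threshold. The 12-month and 3-month WT levels, the neighbours at the top of the order, differed by -0.06 (-0.39 to 0.27).

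Tkt and Taldo1 pass carbon units between the sugar phosphates. On 1439443_x_at, the Tkt probe set of highest mean, the arrays read 10492 and 12137 in WT at 3 months, 16787 and 15388 at 12 months, 14506 and 14536 at 19 months, and 15203 and 13707 in MT. On 1451015_at they read 1939 and 2219, then 3395 and 2620, then 2899 and 2615, and 3094 and 2330. On both, the WT 3-month arrays were below the other 6.

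Relative to WT at 3 months, Tkt on 1439443_x_at differed by 0.51 at 12 months (SE 0.12, 1.42-fold, limma adjusted p = 0.297), by 0.36 at 19 months (SE 0.12, adjusted p = 0.301) and by 0.36 in MT (SE 0.12, adjusted p = 0.254). On 1451015_at the corresponding values were 0.52, 0.41 and 0.37, with adjusted p-values of 0.490, 0.416 and 0.425. No Tkt difference passed the threshold, and all 3 comparisons share the WT 3-month arrays. Among the 3 higher groups the differences from 12 months were -0.15 at 19 months (95% interval -0.43 to 0.13) and -0.15 in MT (-0.43 to 0.12). The third Tkt probe set, 1436605_at, read between 7.81 and 89.7, was below the array median on 6 of the 8 arrays and was not tested.

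The Taldo1 probe set 1425129_a_at read 3902 and 4271 in WT at 3 months, 5911 and 4572 at 12 months, 4410 and 5151 at 19 months, and 4882 and 2970 in MT. The second MT array was the lowest of the 8, and the first was above both WT 3-month arrays. The differences were 0.35 at 12 months (SE 0.23, limma adjusted p = 0.722), 0.22 at 19 months (SE 0.23) and -0.10 in MT (SE 0.23), each against WT at 3 months. The first was 0.16 without the first 12-month array and 0.53 without the second, and the 19-month value was 0.34 without the first 19-month array and 0.11 without the second.

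Rpia makes ribose 5-phosphate, the precursor of nucleotides. Probe set 1418337_at read 314 and 368 in WT at 3 months, 396 and 586 at 12 months, 324 and 220.3 at 19 months, and 361 and 351 in MT. The 12-month arrays were the highest, but they differed from each other by 1.48-fold. The largest difference was from 12 to 19 months (-0.85, SE 0.26, limma adjusted p = 0.314), and the 12-month difference from 3 months was 0.50 (SE 0.26, adjusted p = 0.634). Neither passed the threshold, and the latter was 0.79 without the first 12-month array and 0.22 without the second.

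Idh1 had 2 probe sets with different patterns. Probe set 1422433_s_at read 26721 and 26833 in WT at 3 months, 26979 and 26111 at 12 months, 21824 and 21671 at 19 months, and 22725 and 20758 in MT. The 19-month and MT arrays lay below the younger WT arrays. The differences from WT at 3 months were -0.30 at 19 months (SE 0.11, limma adjusted p = 0.312) and -0.30 in MT (SE 0.11, adjusted p = 0.257). The hepatocyte markers also had lower signals at 19 months: their sum was 338474 and 360849, against 417259 and 398818 at 3 months, and 438008 and 428027 in MT. Of the 9 tested, 8 were below 0 at 19 against 3 months, with a median of -0.21, 2 at an unadjusted p below 0.05 and 0 called, and Alb differed by -0.35 (adjusted p = 0.313) and Cps1 by -0.32 (adjusted p = 0.273). Their part in the Idh1 difference was not tested.

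On 1419821_s_at Idh1 read 11692 and 12217, then 10114 and 9399, then 11957 and 10729 in WT, and 10658 and 8385 in MT. Here the 12-month arrays were below the 3-month arrays (-0.29, SE 0.14, adjusted p = 0.615) and the 19-month arrays were not (-0.08, SE 0.14). Over the 8 arrays the 2 probe sets correlated at 0.315, whereas the 2 tested Tkt probe sets correlated at 0.924. MT was below WT at 3 months on both Idh1 probe sets, by 0.30 and 0.34 on the log2 scale, without passing the threshold. The second of these was -0.51 without the first MT array and -0.17 without the second. Both IDs end in _s_at, the suffix of probe sets that can match more than 1 gene, and the Pgd and Tkt IDs in _x_at can hold probes that also match other sequences.

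Across the 12 tested member probe sets, 9 were higher at 12 than at 3 months, with a median log2 difference of 0.51, against 49.5% of all tested probe sets and a median of 0.00. In 9 of the 12 the arrays of those groups did not overlap, which was so for 40.1% of all tested probe sets. From 12 to 19 months 1 of the 12 was higher and the median was -0.28, against 54.4% and 0.03. From 3 to 19 months 7 were higher, with a median of 0.08, and 53.0% of all. In MT against WT at 3 months 6 were higher, with a median of -0.02, and 52.3% of all. Pgd with 4 and Tkt with 2 probe sets weigh most in these counts: over the 7 genes, each by its probe set of highest mean, 5 were higher at 12 months and the median was 0.35.

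**Figure D3:**
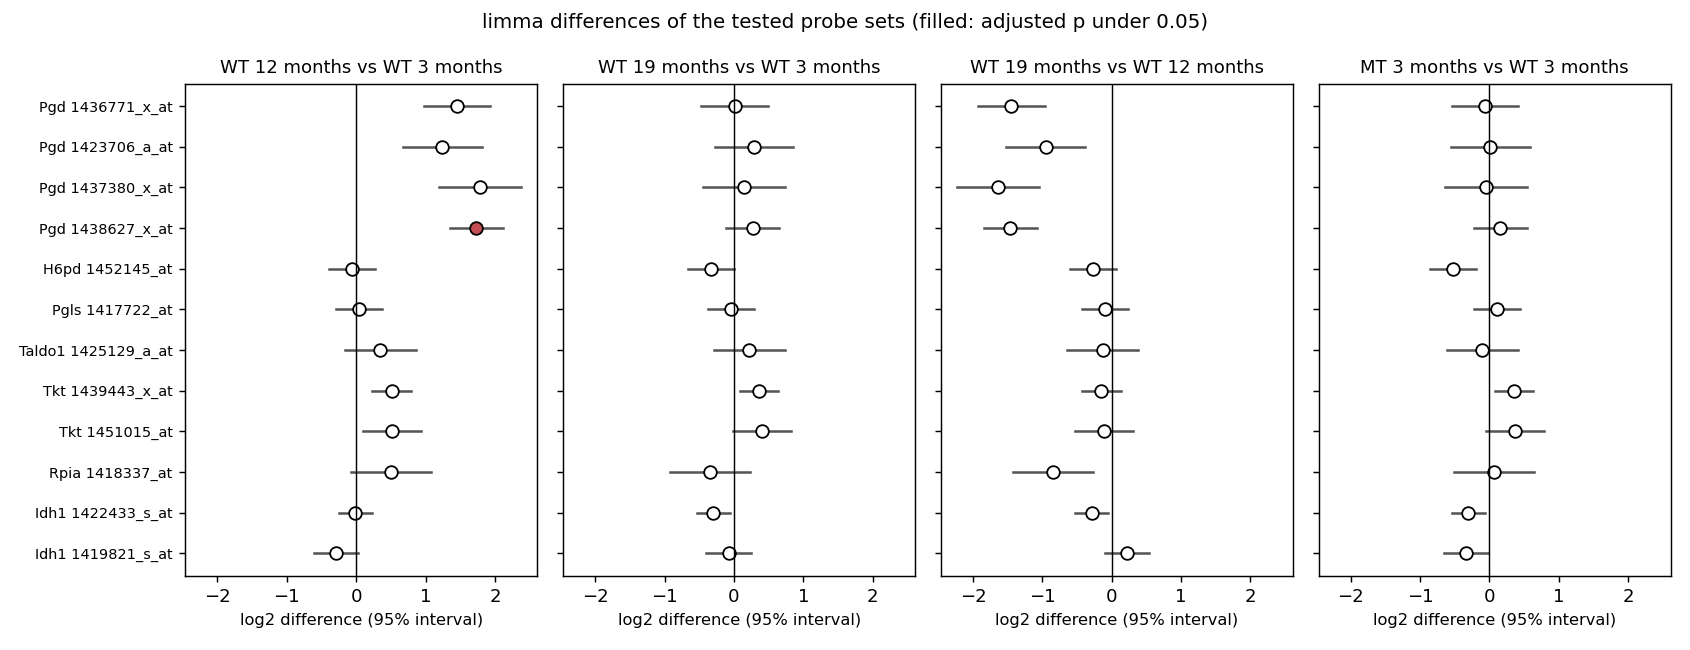
Log2 difference of each tested probe set in the 3 comparisons between WT ages and in MT against WT at 3 months, with its 95% interval from limma. Filled points have an adjusted p under 0.05, and the single one is Pgd on 1438627_x_at at 12 against 3 months.

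No member was called from 3 to 19 months, where limma called 0.0355% of all probe sets (8), or in MT against WT at 3 months, where it called 0.515% (116). At an unadjusted p below 0.05, 3 and 4 of the 12 passed in these comparisons, where 12.5% and 13.5% of all probe sets did, and the t-test of the study's methods picked 0 members in each, of 750 and 890 probe sets in all. The members with the smallest p were Tkt at 19 months and H6pd in MT.

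A comparison of young MT with WT at 12 months was added after the values had been seen, and in it genotype and age cannot be told apart. Pgd was lower in MT on all 4 probe sets, and 3 passed the limma threshold: 1436771_x_at fell by 1.52 (SE 0.21, adjusted p = 0.0294), 1437380_x_at fell by 1.84 (SE 0.26, adjusted p = 0.0305) and 1438627_x_at fell by 1.57 (SE 0.17, adjusted p = 0.0134). On 1423706_a_at the difference was -1.23 (SE 0.25, adjusted p = 0.0920). These were 3 calls among 12 member probe sets, where 0.457% of all tested were called (103). With 1 array left out, the differences ran from -1.79 to -1.25 on 1436771_x_at and from -2.21 to -1.47 on 1437380_x_at. They ran from -1.63 to -0.82 on 1423706_a_at and from -1.75 to -1.39 on 1438627_x_at. In most of these fits fewer Pgd probe sets were called. With the arrays of these groups alone in the fit, none was called, where 9 of all probe sets were. The WT 12-month arrays are the same as in the comparisons by age.

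Within groups the member probe sets tended to move together between the arrays, though those of 1 gene are not separate units. Of the 12 counted here, Pgd gave 4, Tkt 2 and Idh1 2. In WT at 3 months the second array was lower than the first on 0 of the 12. It was lower on 10 of them in WT at 12 months, on 9 in WT at 19 months and on 11 in MT, where 46.4% to 51.4% of all tested probe sets were lower. The median absolute difference between the arrays of a group was 0.35 for the members in MT and 0.32 in WT at 12 months, against 0.26 and 0.26 for all tested probe sets. In the other groups it was 0.14 and 0.15, against 0.19 and 0.22. In MT the widest gaps were on Pgd, down to 0.570-fold on 1423706_a_at, and on Taldo1, 0.608-fold. The hybridization control BioC-5 read 2493 on the first MT array and 5036 to 6639 on the other 7, and its part in this gap was not tested.

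Of 22 other pentose phosphate genes, which include the enzymes that feed or drain the pathway, 15 were tested and 0 were called by limma in any comparison. Their medians lay between -0.11 and 0.11, with 2, 0, 2, 2 and 1 genes at an unadjusted p below 0.05 for 12 against 3, 19 against 3 and 19 against 12 months, MT against WT at 3 months, and MT against WT at 12 months. Shpk, which phosphorylates sedoheptulose, differed by 0.54 at 12 months (limma adjusted p = 0.490) and 0.64 in MT against WT at 3 months (adjusted p = 0.181). Pfkl, the liver phosphofructokinase of glycolysis, differed by 0.56 at 12 months (adjusted p = 0.528). Prps2, which activates ribose 5-phosphate for nucleotide synthesis, differed by -0.54 in MT (adjusted p = 0.242).

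Among 13 other NADPH sources and NAD kinases, 11 were tested and 0 were called in any comparison, with 3, 0, 3, 1 and 2 at an unadjusted p below 0.05 in the same order of comparisons. Their medians lay between -0.12 and 0.10. Me1, the cytosolic malic enzyme, read 4898 and 5960 in WT at 3 months, 14910 and 9504 at 12 months, 5846 and 5940 at 19 months, and 6170 and 2599 in MT. Its 12-month arrays, too, were the highest, but they were far apart and the difference of 1.14 did not pass the threshold (SE 0.35, limma adjusted p = 0.419). Nadk2, the mitochondrial NAD kinase, differed by -0.37 at 12 months (adjusted p = 0.557). The tetrahydrofolate enzyme gene Mthfd1l differed by 1.33 in MT against WT at 3 months (SE 0.43, adjusted p = 0.214).

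Genes of lipid synthesis, a process that draws on NADPH, and of reductases and redox enzymes that use it were counted in the same way. Most genes of the lipogenic list, such as Acly and Pklr, do not themselves code for an enzyme that uses NADPH. All 11 lipogenic genes tested were higher at 12 than at 3 months, with a median of 1.02 and 10 at an unadjusted p below 0.05, and 0 were called by limma. Acly, ATP citrate lyase, read 7466 and 8023 in WT at 3 months and 18123 and 13518 at 12 months, a difference of 1.02 (SE 0.21, adjusted p = 0.221). At 19 months the median of the 11 was 0.33 and in MT 0.41, both against WT at 3 months. Acacb, an acetyl-CoA carboxylase, was the gene of these lists that was called. It differed by -3.37 in MT against WT at 12 months (SE 0.57, limma adjusted p = 0.0443). Its arrays read 2485 and 1318 in WT at 12 months and 373 and 82.4 in MT. The second MT value lay near the median of that array, 82.8.

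Of 9 sterol and other lipid reductases tested, and of 10 redox enzymes that use NADPH, 0 were called in any comparison. At an unadjusted p below 0.05 there were 0, 1, 2, 2 and 3 of the reductases and 0, 2, 0, 1 and 0 of the redox enzymes. Their medians at 12 months were 0.10 and -0.10. Lbr, a sterol reductase of the nuclear membrane, differed by 0.63 in MT (adjusted p = 0.113) and Gsr, glutathione reductase, by -0.43 (adjusted p = 0.437), both against WT at 3 months.

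**Figure D4:**
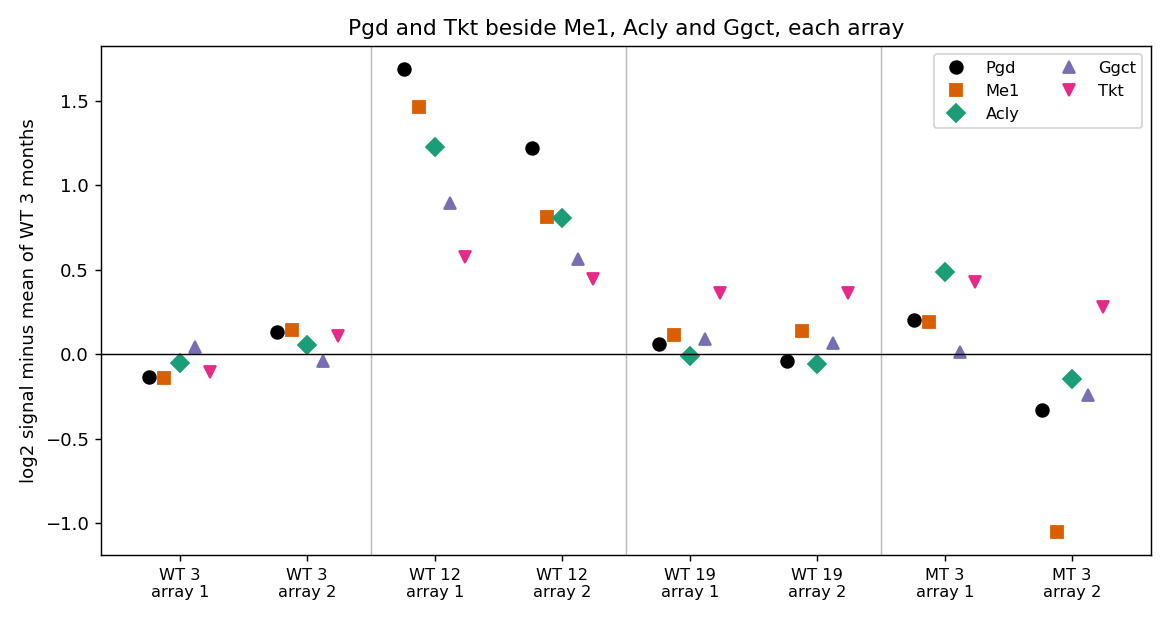
Log2 signal on each array, less the mean of the WT 3-month arrays, for Pgd and Tkt (probe sets of highest mean) beside Me1, Acly and Ggct. Pgd, Me1, Acly and Ggct have their highest values on the WT 12-month arrays, with the first above the second, while Tkt is raised by less and stays above its 3-month mean in the other groups.

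The genes most like Pgd over the 8 arrays, by Pearson correlation of log2 signal, were Ggct (0.972), Acly (0.965), E2f7 (0.955), H2-DMa (0.949) and Bmp1 (0.936). Ggct read 1114 and 1052 in WT at 3 months, 2014 and 1601 at 12 months, 1153 and 1134 at 19 months, and 1093 and 914 in MT. With 8 arrays in 4 groups, such values mainly follow the 12-month arrays, and they were picked as the highest of all tested genes. The closest genes to the other members were Ralgapb for Tkt (0.962), Zfp871 for H6pd (0.976) and Rnf146 for Pgls (0.956). They were Setd4 for Taldo1 (0.945), Psmg3 for Rpia (0.965) and Gzma for Idh1 (0.967). Gzma read 68.5 and 49.1 in WT at 19 months and 65.5 and 47.5 in MT, all below the median of their array. H2-DMa read from 69.4 to 108 over the 8 arrays, near the array medians. Among the members themselves, Pgd on its probe set of highest mean correlated at 0.668 with Taldo1, 0.637 with Tkt and 0.628 with Rpia, and H6pd with Idh1 at 0.810.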

How the data were processed

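The deposited table holds 1 linear intensity (MAS5 signal) per probe set and array, which the authors scaled to a common trimmed mean. No MAS5 version was given in these sources. From 45101 rows, 64 controls were left out. The array annotation gave 1 symbol for 34945 probe sets, several for 932 and none for 9160, and only probe sets with 1 symbol were named.

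Signals under 1 were set to 1 and log2-transformed. The 22519 probe sets ranking in the top 50% by mean log2 signal (6.18 or more) were tested with limma 3.58.1 (lmFit, eBayes with a variance trend, R 4.3.3) in 1 fit of all 8 arrays, with 4 residual degrees of freedom. P-values were two-sided and Benjamini-Hochberg adjusted over all tested probe sets in each comparison, and called below 0.05. The fit was tested on simulated data. Python 3.11.15 made the remaining tables. An exact permutation test of 2 against 2 arrays cannot go below 0.333 and was not used. The study's text describes more mice per group than arrays, and the sources used here do not tie arrays to mice, so p-values measure only the spread between arrays, which may be technical, and the number of arrays limits the precision.

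The members and gene lists were chosen with earlier results of these data known. A gene's value is its probe set of highest mean. Named from the pathway lists were called genes and others from among the 2 of largest absolute moderated t per comparison, and for each member the genes most correlated with it. Levels of different probe sets were not compared. The alternatives were quantile normalization, a pseudocount of 16, other filters, thresholds and fits, a replicate block, and leaving out each array. The t-test of the study's methods was another, run without the absent calls by which the study also left out probe sets. The marker lists of the T and NK, neutrophil, erythroid, endothelial, bile duct, stellate and exocrine pancreas cells were summed too.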

Additional observations from a re-analysis of the deposited data

How the results depend on the processing

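The number of member probe sets called was 1 at 12 against 3 months, 0 at 19 against 3, 0 at 19 against 12, 0 in MT against WT at 3 months and 3 in MT against WT at 12 months. At an unadjusted limma p below 0.05 it was 6, 3, 6, 4 and 6, against 8.57%, 12.5%, 10.7%, 13.5% and 13.2% of all tested probe sets. Without the variance trend it was 0 at 12 against 3 months and 0 in MT against WT at 12 months, where it was also 0 with only those groups fitted. The methods' t-test with a fold above 1.5 picked 4 members at 12 against 3 months, of 502 probe sets in all. It picked 4 of 524 at 19 against 12 months and 2 of 605 in MT against WT at 12 months. After Benjamini-Hochberg adjustment it picked 0 in each comparison. At 19 against 12 months 1 member of 4 probe sets in all was called at an adjusted p below 0.10, and 1 of 3 without the filter on low values. Leaving out 1 array changed the member counts at 12 against 3 months, at 19 against 12 months and in MT against WT at 12 months. The counts of all probe sets called changed too. The replicate block left the member counts at 1, 0, 0, 0 and 3, with 3, 25, 0, 129 and 119 of all probe sets called. The replicate numbers are only names across groups: the deviations of same-numbered arrays correlated at -0.03 to 0.14 between groups. Of 52 probe set differences, 16 changed sign under some setting, none of them called and none above 0.16 in size. Quantile normalization turned Idh1 on 1419821_s_at to 0.027 at 19 against 3 months, and the mean over probe sets turned Pgd to 0.016 in MT against WT at 3 months. Leaving out 1 array gave, at 12 against 3 months, -0.23 to 0.10 for H6pd, -0.0201 to 0.11 for Pgls and -0.036 to 0.011 for Idh1 on 1422433_s_at. At 19 against 3 months it gave -0.12 to 0.14 and -0.034 to 0.33 for Pgd on 1436771_x_at and 1437380_x_at, -0.17 to 0.079 for Pgls and -0.16 to 0.0007 for Idh1 on 1419821_s_at. At 19 against 12 months it gave -0.22 to 0.034 for Pgls, -0.31 to 0.06 for Taldo1 and -0.30 to 0.072 for Tkt on 1451015_at. In MT against WT at 3 months Pgd ranged from -0.33 to 0.20 on 1436771_x_at, -0.42 to 0.32 on 1437380_x_at, -0.39 to 0.42 on 1423706_a_at and -0.018 to 0.34 on 1438627_x_at, Taldo1 from -0.46 to 0.26 and Rpia from -0.046 to 0.18. The cause was not tested. Low signals, such as that of Tkt on 1436605_at, which lay under the filter, limit what could be tested.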
